A study of Mus musculus with 44 samples.

Results

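The MHC class I heavy chain genes described here are H2-K1, H2-D1, H2-Q1, H2-Q2, H2-Q4, H2-Q6, H2-Q7, H2-T22, H2-T23 and H2-M3, 10 genes that lie between the start of H2-K1 and the end of H2-M3 on mouse chromosome 17. They were picked by gene symbol, with earlier results on these data known, among them that single H2-Q genes stood higher in control mice with tumour cells than in the other groups. Those differences are therefore given as a description, without a test. Of the 10 genes, 9 had a row among the 14699 genes of the expression table, and 8 passed the filter of at least 1 CPM (counts per 1000000 reads on genes) in at least 5 of the 44 libraries, which left 11963 genes. H2-Q6 was not analysed here, because the table used has no row with this symbol. H2-Q1 had a row but reached 1 CPM in no library. H2-Q2 passed the filter almost entirely through 1 group, the control mice with tumour cells, where 20 of 20 libraries reached 1 CPM, against 1 of 12 and 2 of 12 in the other groups. It therefore had to differ once it was in.

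RNA-seq was done on CD45+CD11c+MHCII high cells, a gate that holds dendritic cells (DCs), sorted from mouse lymph nodes that drain the injection site. Each of the 44 libraries came from 1 mouse. Mice were injected at ZT3, ZT9, ZT15 or ZT21 (zeitgeber time in hours, where ZT0 is lights on), and their nodes were taken the day after. The comparisons ask whether expression in these cells follows the time of day, whether this depends on the clock of the DCs and whether it depends on the tumour. Control mice with tumour cells (genotype label WT, treatment label B16-F10-OVA) were C57BL/6N animals given a B16-F10 melanoma line that expresses ovalbumin, with 5 mice per timepoint and 20 in all. Mice labelled KO (also B16-F10-OVA, 3 per timepoint and 12 in all) carried both floxed alleles of Bmal1 (listed as Arntl, a core clock gene) and 1 copy of a Clec9a-cre transgene. This Cre acts in the conventional DC lineage, so other cells in the gate keep the gene. Sham mice (WT, PBS, 3 per timepoint and 12 in all) were given buffer without tumour cells. All animals were adults, and nothing in the labels says which experiment, litter or sorting day a mouse belonged to.

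A class I heavy chain typically pairs with the light chain beta 2-microglobulin and a short peptide and carries the peptide to the cell surface, where CD8 T cells and NK cells read it. H2-K1 and H2-D1 encode the classical heavy chains, which present peptides to CD8 T cells in nearly every nucleated cell. The H2-Q, H2-T and H2-M genes encode non-classical heavy chains, which are less variable between strains. Among these, H2-Q7 gives the Qa-2 antigen, H2-T23 gives Qa-1, which displays leader peptides of other class I chains to the receptor CD94-NKG2A, H2-T22 is seen by some gamma delta T cells, and H2-M3 holds formylated peptides of bacterial or mitochondrial origin. DCs use the classical heavy chains to cross-present tumour antigen to CD8 T cells.

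The groups differed in depth. Control tumour libraries held 20088012 to 28962671 reads on genes (median 23.7 reads per CPM), KO libraries 29406730 to 55799162 (median 37.0) and sham libraries 28003328 to 49590054 (median 37.9). All 12 KO and 11 of 12 sham libraries were deeper than the deepest control tumour library, so depth and group cannot be told apart. In the libraries labelled KO, Arntl did not stand below control mice, with 14.8 ± 3.65 CPM (SD, n = 20) in control tumour mice, 19.9 ± 6.91 CPM (SD, n = 12) in KO mice and 21.7 ± 6.11 CPM (SD, n = 12) in sham mice. The table sums over the whole gene, so a deleted exon cannot be seen, and below KO names a label. The 12 conventional DC markers summed to a median of 11765 CPM in control tumour, 12642 CPM in KO and 10557 CPM in sham mice, with migratory Ccr7 at medians of 5471, 5712 and 5359 CPM. Most of this sum is Ccr7 and Fscn1 (medians of 5352, 5722 and 3936 CPM for Fscn1), so it does not show a like DC make-up. Clec9a had medians of 1.80, 0.589 and 5.22 CPM. On the log2 scale explained below, control tumour minus sham was -2.04 ± 0.19 for Itgae and -1.93 ± 0.23 for Xcr1, but 0.30 ± 0.08 for Batf3. KO minus control tumour was 1.36 ± 0.23 for Itgae. Markers of other cells were lowest in control tumour mice, with medians over the summed T cell, B cell and NK cell lists of 660, 56.5 and 76.3 CPM, against 804, 72.6 and 118 CPM in KO mice and 953, 99.8 and 226 CPM in sham mice. Between control tumour and sham mice the NK cell sums did not overlap (61.0 to 109 CPM against 153 to 761 CPM), nor did those of the B cell list (41.4 to 68.8 CPM against 73.6 to 125 CPM). T and NK cells also express class I, and the part of these markers in the differences below was not tested. In sorted bulk RNA, fewer cells of a type and less RNA per cell cannot be told apart.

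How well 50-base reads can separate these genes bears on every value, so a variable and a conserved stretch of the same exon are shown first. The exon is the 4th coding exon, which encodes the membrane-proximal alpha 3 domain and has 276 bases in each of the 10 genes (GENCODE annotation of GRCm38, the mm10 build). Its first 60 bases (bases 1 to 60, for H2-K1 chr17:33997501-33997560 on the minus strand and for H2-Q7 chr17:35442267-35442326 on the plus strand) are given 5′ to 3′, with capitals at bases that differ from H2-K1. Of the 10 sequences, 9 are distinct.
H2-K1: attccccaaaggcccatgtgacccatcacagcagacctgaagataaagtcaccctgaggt
H2-D1: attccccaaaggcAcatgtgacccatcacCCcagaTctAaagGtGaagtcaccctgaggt
H2-Q1: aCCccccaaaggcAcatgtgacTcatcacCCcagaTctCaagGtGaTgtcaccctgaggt
H2-Q2: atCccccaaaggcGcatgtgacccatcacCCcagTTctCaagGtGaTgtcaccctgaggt
H2-Q4: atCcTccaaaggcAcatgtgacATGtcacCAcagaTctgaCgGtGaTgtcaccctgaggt
H2-Q6: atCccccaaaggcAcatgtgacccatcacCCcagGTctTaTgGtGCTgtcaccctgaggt
H2-Q7: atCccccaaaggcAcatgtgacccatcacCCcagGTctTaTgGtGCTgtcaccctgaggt
H2-T22: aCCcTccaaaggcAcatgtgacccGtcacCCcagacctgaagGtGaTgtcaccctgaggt
H2-T23: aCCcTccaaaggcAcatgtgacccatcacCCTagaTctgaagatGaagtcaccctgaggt
H2-M3: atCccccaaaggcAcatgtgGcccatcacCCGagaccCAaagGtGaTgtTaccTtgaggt

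Bases 128 to 187 of the same exon, the 60 bases with the fewest differences from H2-K1 over the 10 genes (chr17:33997374-33997433 in H2-K1 and chr17:35442394-35442453 in H2-Q7) hold only 3 distinct sequences, again with capitals where a base differs from H2-K1. H2-D1, H2-Q1, H2-Q6, H2-Q7, H2-T22 and H2-T23 are identical to H2-K1 there, so a 50-base read from these bases belongs equally to 7 genes. Each distinct sequence is printed once.
H2-K1: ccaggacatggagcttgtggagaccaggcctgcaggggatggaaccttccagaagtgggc
H2-Q2: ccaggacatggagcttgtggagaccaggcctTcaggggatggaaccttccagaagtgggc
H2-M3: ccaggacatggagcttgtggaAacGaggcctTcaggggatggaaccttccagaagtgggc
H2-Q4 has the same 60 bases as H2-Q2. Over the whole exon, H2-Q6 and H2-Q7 differ at 2 of 276 bases, whereas H2-K1 and H2-M3 differ at 42.

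Over the whole transcript, the share of 50-base windows that occur exactly in the transcript of another gene ranged from 0.576% in H2-M3 to 44.7% in H2-T22. It was 8.79% in H2-K1, 8.74% in H2-Q2, 14.3% in H2-D1, 22.9% in H2-Q1, 29.8% in H2-T23, 34.9% in H2-Q7, 35.0% in H2-Q6 and 39.2% in H2-Q4. Within the coding sequence of H2-Q7, 50.3% of the windows were shared. The closest partners were H2-T10 for H2-T22 (37.9% of the windows of H2-T22) and, for H2-Q7, H2-Q6 (19.3%) and H2-Q5 (15.2%). Most values in the table are whole multiples of 1 read, but those of each of the 9 heavy chain genes with a row were fractions of a read in 42 to 44 of 44 libraries, against 0 of 44 for Arntl and 3 of 44 for B2m, which encodes the light chain. How these fractions arose is not given in the sources used here, and how shared reads were divided between H2-Q genes cannot be seen from the table. Fractions were as common in some genes with few shared windows, in 44 of 44 libraries for H2-M3 and 43 of 44 for H2-Bl (0% shared windows). A low share of exact windows therefore does not show that the reads of a gene are its own. Other such genes had fewer fractions. H2-M5 (2.23% shared windows, at most 0.469 CPM) had them in 19 of 20 control tumour libraries above 0, 0 of 9 KO and 3 of 11 sham libraries. H2-M1 had them in 0 of 6 libraries above 0 and H2-M10.1 in 0 of 5. Whether reads were divided alike in the groups was not tested. Values of single class I genes, not only of the H2-Q genes and H2-T22, are thus uncertain to the extent that reads may pass between them.

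**Figure D1:**
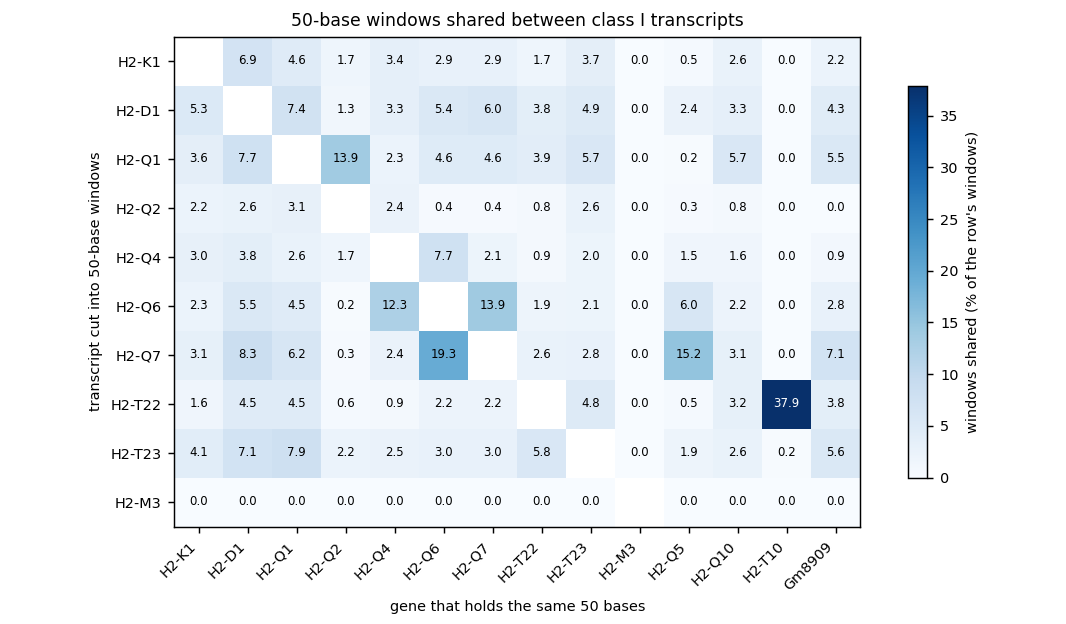
Heat map of the share of 50-base windows of a transcript (rows, percent of the windows of the row, in colour and digits) found exactly in the transcript of another class I gene (columns), from the GENCODE annotation of GRCm38. The darkest cells are H2-T22 with H2-T10 (37.9%), H2-Q7 with H2-Q6 (19.3%) and H2-Q7 with H2-Q5 (15.2%), and H2-M3 shares no window with these genes.

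Among the heavy chain genes, levels spanned a wide range. Per kilobase of transcript, control tumour libraries had 6380 ± 268 CPM per kb (SD, n = 20) for H2-D1 and 5318 ± 187 CPM per kb for H2-K1. H2-Q7 followed with 1180 ± 129 CPM per kb and H2-T23 with 1157 ± 118 CPM per kb, and these neighbours in the order differed by less than their SD. Then came H2-M3 (151 ± 18.8 CPM per kb), H2-Q4 (118 ± 10.7 CPM per kb), H2-T22 (75.4 ± 9.52 CPM per kb), H2-Q2 (7.13 ± 1.01 CPM per kb) and H2-Q1 (0.179 ± 0.0639 CPM per kb). The order was not the same in the other groups. Per kilobase, H2-T22 stood above H2-Q4 in KO mice (54.5 ± 10.12 against 35.6 ± 5.56 CPM per kb, n = 12) and in sham mice (56.5 ± 10.9 against 40.2 ± 4.26 CPM per kb, n = 12), and H2-T23 stood above H2-Q7 in KO mice (1040 ± 109 against 886 ± 120 CPM per kb) and in sham mice (1139 ± 72.5 against 958 ± 58.9 CPM per kb).

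H2-K1 (chromosome 17, 33996017 to 34000347 of GRCm38, minus strand) had 7904 to 9041 CPM in the 20 control tumour libraries, with a median of 8661. In KO libraries it had 6352 to 8480 CPM (median 7518), and in sham libraries 7229 to 8594 CPM (median 7697). Most control tumour libraries lay above the other groups, but the ranges overlapped. On the log2(CPM + 0.5) scale, on which differences between groups are given below as an average over the 4 timepoints with the standard error (SE) of the limma fit, KO minus control tumour was -0.21 ± 0.04 for H2-K1. Control tumour minus sham was 0.15 ± 0.04 for H2-K1.

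H2-D1 (35262730 to 35267499, plus strand), the other classical chain and the most abundant of the heavy chains, was nearly level in CPM as deposited. Its values were 12564 to 14791 CPM (median 13336) in control tumour, 10867 to 14448 CPM (median 13032) in KO and 11264 to 13959 CPM (median 12754) in sham mice. The pooled ranges overlapped, though at 1 of the 4 timepoints every control tumour library lay above every sham library. How many of all genes separate groups within single timepoints was not counted, here or below. The differences for H2-D1 were -0.07 ± 0.04 for KO minus control tumour and 0.07 ± 0.04 for control tumour minus sham. Under median-of-ratios scaling, KO minus control tumour was -0.17 for H2-D1. H2-K1 made up 39.1 ± 0.782% (SD, n = 20) of the sum of H2-K1 and H2-D1 in control tumour mice, 36.8 ± 0.801% (SD, n = 12) in KO mice and 37.8 ± 1.35% (SD, n = 12) in sham mice. At each of the 4 timepoints this share was higher in every control tumour library than in every KO library, so within the classical pair H2-K1 was the gene that differed more.

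H2-Q2 (35342242 to 35346762, plus strand) encodes a heavy chain of the H2-Q cluster whose function is little known. It had 6.92 to 11.4 CPM (median 9.05) in control tumour libraries, 0.345 to 1.17 CPM (median 0.663) in KO libraries and 0.430 to 1.83 CPM (median 0.629) in sham libraries. The lowest control tumour library lay well above the highest library of either other group. Mean H2-Q2 was 13.0 times the KO mean and 12.02 times the sham mean in control tumour mice, with log2 differences of -3.00 ± 0.08 (KO minus control tumour) and 2.97 ± 0.10 (control tumour minus sham). In reads, the deeper groups also held fewer, with medians of 216 reads in control tumour, 24.4 in KO and 23.5 in sham libraries for H2-Q2. At single timepoints the picture was the same: at ZT15, for example, the 5 control tumour libraries had 7.83, 6.92, 9.87, 8.88 and 7.95 CPM, the 3 KO libraries 0.660, 0.532 and 0.754 CPM, and the 3 sham libraries 0.930, 0.434 and 0.442 CPM. Of the 50-base windows of H2-Q2, 8.74% are shared with another gene, though its values were fractions of a read in 43 of 44 libraries.

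H2-Q4 (35379617 to 35385290, plus strand), a further heavy chain of the H2-Q cluster, was likewise apart. Its values were 173 to 238 CPM (median 218) in control tumour, 46.1 to 80.4 CPM (median 63.2) in KO and 63.6 to 91.0 CPM (median 70.8) in sham libraries. No KO or sham library came near the lowest control tumour library. The control tumour mean of H2-Q4 was 3.32 times that of KO and 2.93 times that of sham mice, with log2 differences of -1.73 ± 0.06 and 1.55 ± 0.05. By timepoint, KO minus control tumour for H2-Q4 was -1.55 ± 0.11 at ZT3, -1.69 ± 0.11 at ZT9, -1.62 ± 0.11 at ZT15 and -2.06 ± 0.11 at ZT21. At ZT21 the KO libraries had 52.7, 59.9 and 46.1 CPM, all below the sham libraries at the same time (70.5, 91.0 and 72.3 CPM).

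H2-Q7 (35439155 to 35443773, plus strand), which gives Qa-2, was the main H2-Q gene. It had 1467 to 2092 CPM (median 1799) in control tumour, 1067 to 1601 CPM (median 1402) in KO and 1304 to 1609 CPM (median 1458) in sham libraries. Pooled over time the groups overlapped. Within each of the 4 timepoints, however, every control tumour library had more H2-Q7 than every KO library, and at 3 of 4 timepoints more than every sham library. No share of all genes that separate in this way is at hand to set beside it. At ZT21 the control tumour libraries had 1928, 1980, 1955, 2019 and 2092 CPM, against 1094, 1429 and 1448 CPM in KO and 1371, 1609 and 1440 CPM in sham libraries. The log2 differences of H2-Q7 were -0.42 ± 0.06 and 0.29 ± 0.05. H2-Q1 (35320405 to 35325099, plus strand) stood at 0.0984 to 0.572 CPM in control tumour, 0.0537 to 0.280 CPM in KO and 0.0386 to 0.580 CPM in sham libraries, with at most 19.7 reads in any library, and the groups overlapped.

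**Figure D2:**
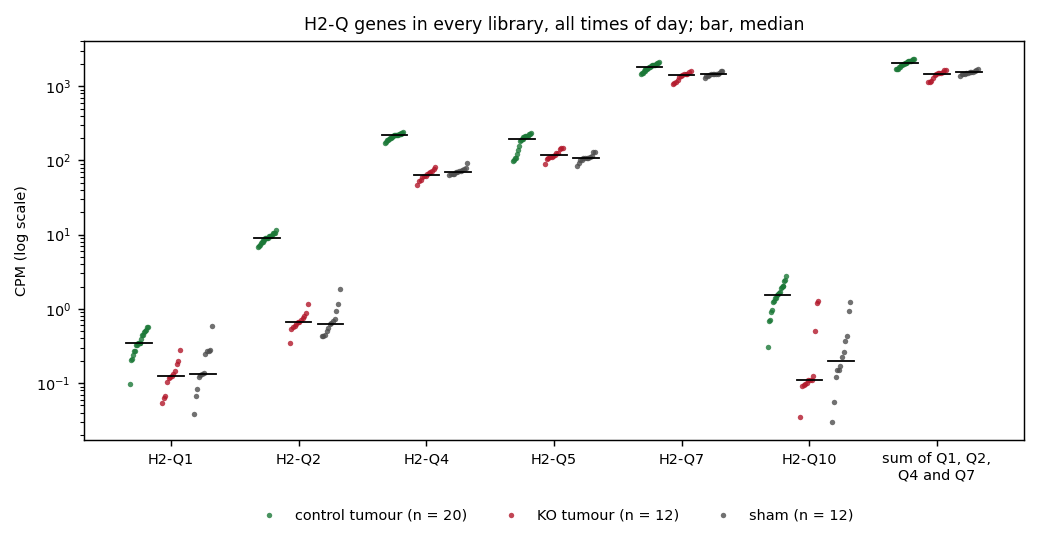
CPM (y axis, log scale) of the 6 H2-Q genes with a row and of the sum of H2-Q1, H2-Q2, H2-Q4 and H2-Q7 (x axis) in every library, where a point is 1 mouse, points are ordered by value within a group and a bar is the group median. H2-Q2 (6.92 to 11.4 CPM) and H2-Q4 (173 to 238 CPM) of control tumour mice lie wholly above KO and sham mice, while H2-Q7 and H2-Q1 overlap.

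Since H2-Q genes share windows, their values were also summed in each library, and the sum was not constant over the groups. H2-Q1, H2-Q2, H2-Q4 and H2-Q7 together had 1678 to 2330 CPM (median 2039) in control tumour libraries, 1122 to 1673 CPM (median 1467) in KO libraries and 1375 to 1701 CPM (median 1530) in sham libraries. Each control tumour library was above each KO library, narrowly, and overlap with the sham group was slight. The log2 differences of this sum were -0.52 ± 0.05 for KO minus control tumour and 0.39 ± 0.04 for control tumour minus sham, and control tumour libraries were wholly above both groups at each of the 4 timepoints. Without H2-Q7, by far the largest term, the sum of the other H2-Q genes was 221 ± 19.99 CPM (SD, n = 20) in control tumour, 64.7 ± 9.90 CPM (SD, n = 12) in KO and 73.1 ± 7.58 CPM (SD, n = 12) in sham mice, and its differences were -1.78 ± 0.05 and 1.60 ± 0.04.

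The genes did not contribute alike. H2-Q7 made up 89.0 ± 1.00% of the summed H2-Q1, H2-Q2, H2-Q4 and H2-Q7 in control tumour mice (87.4 to 91.0%), 95.4 ± 0.553% in KO mice (94.8 to 96.8%) and 95.2 ± 0.394% in sham mice (94.6 to 96.0%). Control tumour libraries were thus lower in this share than either other group, with no overlap. With H2-Q5 and H2-Q10, which also have rows, the H2-Q total was 2197 ± 248 CPM in control tumour, 1534 ± 194 CPM in KO and 1640 ± 100.03 CPM in sham mice. For this total of 6 rows the separation from KO mice was lost, as the lowest control tumour library had 1781 CPM and the highest KO library 1791 CPM, though control tumour libraries were above both groups at each of the 4 timepoints. Of the 663 CPM by which control tumour exceeded KO mice, 67.6% was H2-Q7, 22.3% H2-Q4, 8.62% H2-Q5 and 1.25% H2-Q2. Of the 557 CPM by which it exceeded sham mice, 60.7% was H2-Q7, 25.0% H2-Q4, 12.5% H2-Q5 and 1.48% H2-Q2. Each of the 6 H2-Q rows had its highest mean in control tumour mice, and H2-Q6, which has no row, is not part of any sum. The sum of H2-K1 and H2-D1 was 22021 CPM in control tumour, 20223 CPM in KO and 20564 CPM in sham mice. How reads were assigned was not tested. As a share of all 27 class I and class I-like heavy chain rows, the 6 H2-Q rows were 7.60 ± 0.618% in control tumour, 5.75 ± 0.518% in KO and 6.10% in sham mice.

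**Figure D3:**
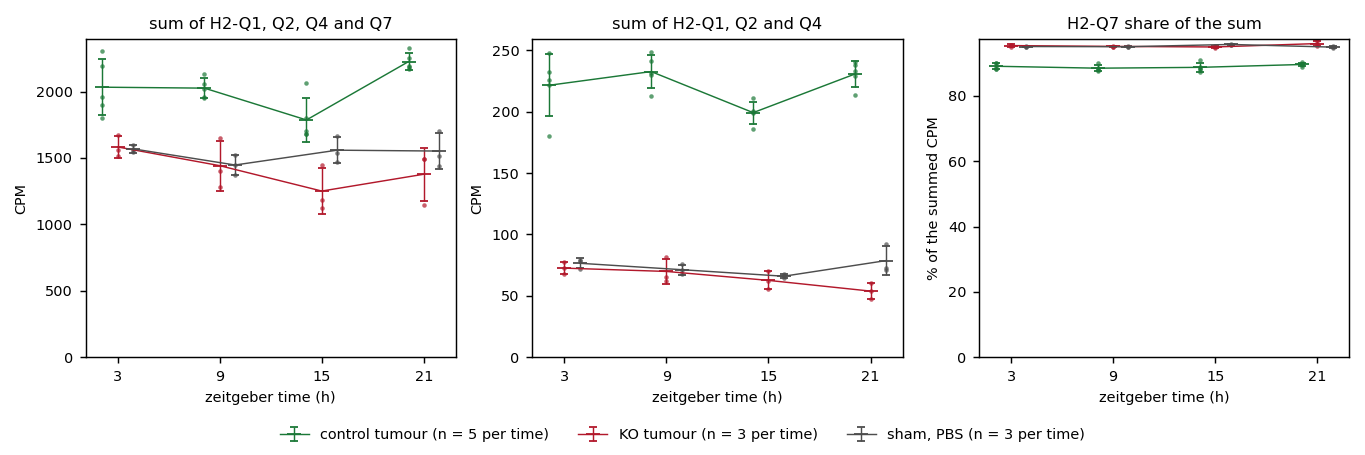
From left to right by timepoint (x axis, ZT in hours), the summed CPM of H2-Q1, H2-Q2, H2-Q4 and H2-Q7, the sum without H2-Q7, and H2-Q7 as a percentage of the sum, where points are mice, lines join group means and bars are the SD. In both sums the control tumour libraries lie above KO and sham libraries at each of the 4 timepoints, and in the share they lie below (87.4 to 91.0%).

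H2-T22 (36037128 to 36042747, minus strand), a ligand of some gamma delta T cells, was also higher in control tumour mice on average, but with wide spread. Its values were 100 to 158 CPM (median 136) in control tumour, 71.3 to 123 CPM (median 93.9) in KO and 71.4 to 141 CPM (median 95.2) in sham libraries, and the groups overlapped. The differences for H2-T22 were -0.48 ± 0.08 and 0.43 ± 0.08. H2-T23 (36029773 to 36032855, minus strand), which encodes Qa-1, had 1392 to 1930 CPM (median 1764) in control tumour, 1231 to 1792 CPM (median 1559) in KO and 1493 to 1869 CPM (median 1663) in sham libraries. It was -0.15 ± 0.06 for KO minus control tumour and 0.02 ± 0.05 for control tumour minus sham, so the latter difference was smaller than its SE. H2-M3 (37270220 to 37274484, plus strand) had 172 to 266 CPM (median 220), 169 to 238 CPM (median 217) and 193 to 241 CPM (median 209) in the same order of groups, with differences of -0.05 ± 0.05 and 0.01 ± 0.05. In CPM as deposited, neither group difference of H2-M3, the gene with hardly any shared windows, exceeded its SE. Its KO minus control tumour difference lay below the median over all genes, which was 0.10.

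Taking the 8 genes that passed the filter side by side, KO minus control tumour ran from -3.00 (H2-Q2) to -0.05 (H2-M3) with a median of -0.32, where the median over all 11963 genes was 0.10. Control tumour minus sham ran from 0.01 (H2-M3) to 2.97 (H2-Q2) with a median of 0.22, where the median over all genes was -0.04. These comparisons share the 20 control tumour libraries, so that a high value in those libraries moves both. H2-Q2 and H2-Q4, 2 of the 8, were higher in every control tumour library than in every KO library, which 0.468% of all genes were, and the same 2 genes were higher than in every sham library, which 0.418% of all genes were. Because these genes were chosen for such differences, nothing is read from the counts. KO and sham mice, which share no library, differed less. KO minus sham was -0.07 ± 0.05 for H2-K1, -0.00 ± 0.05 for H2-D1, -0.03 ± 0.14 for H2-Q2, -0.18 ± 0.07 for H2-Q4, -0.12 ± 0.07 for H2-Q7, -0.05 ± 0.12 for H2-T22, -0.14 ± 0.07 for H2-T23 and -0.04 ± 0.06 for H2-M3. None of the 8 genes separated KO from sham libraries (0 of 8, against 0.159% of all genes in either direction).

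**Figure D4:**
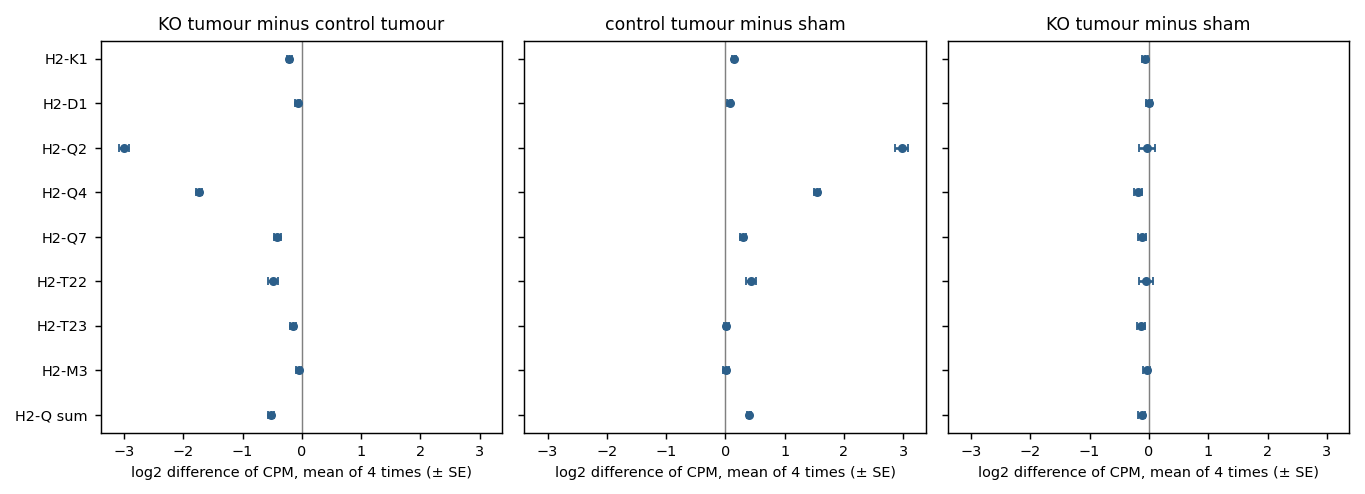
Difference between groups on the log2(CPM + 0.5) scale, averaged over the 4 timepoints (x axis, bars are the SE), for the 8 heavy chain genes that passed the filter and, on the log2 scale of CPM, for the sum of H2-Q1, H2-Q2, H2-Q4 and H2-Q7 (y axis), with 1 panel per comparison. H2-Q2 (-3.00 and 2.97) and H2-Q4 (-1.73 and 1.55) stand apart in the left and middle panels, and in the right panel, KO minus sham, the difference furthest from 0 is -0.18 (H2-Q4).

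Other class I-like genes with a row were not level either. Of the 13 past the filter, 10 had a negative KO minus control tumour difference (median -0.31) and 9 a positive control tumour minus sham difference (median 0.66). Some of these rows passed the filter mainly through control tumour mice, as given below. The low row H2-Q10, at means of 1.54, 0.321 and 0.345 CPM in control tumour, KO and sham mice, is counted too. The share of all genes with the same sign was not counted, so nothing is read from these counts. Gm8909, a class I-like gene of the H2-T region with 29.4% shared windows, resembled H2-Q2, at 5.80 ± 0.711 CPM in control tumour, 0.898 ± 0.437 CPM in KO and 1.23 CPM in sham mice, with no overlap between control tumour and either group. H2-T3 (1.28% shared windows) had 1.83 ± 0.659 CPM in control tumour, 0.266 ± 0.275 CPM in KO and 0.158 ± 0.115 CPM in sham mice, with differences of -1.61 ± 0.15 and 1.78 ± 0.12, and its control tumour libraries were wholly above the sham libraries. H2-Bl (0% shared windows) had 1.52 ± 0.504, 0.596 ± 0.287 and 0.589 ± 0.249 CPM in the same order, with differences of -0.88 ± 0.13 and 0.88 ± 0.13. Like H2-Q2, H2-T3 and H2-Bl passed the filter mainly through control tumour mice, where 17 of 20 libraries reached 1 CPM for each, so that they had to differ. Gm8909 would have passed through control tumour mice alone, with at least 4.03 CPM in each of those libraries. It had at most 2.01 CPM in KO and 2.95 CPM in sham libraries. H2-M2, a heavy chain gene with 1.67% shared windows, had its highest mean in KO mice, at 2386 ± 376 CPM in control tumour, 2891 ± 450 CPM in KO and 2517 CPM in sham mice, and its ranges overlapped. Gm8909, H2-T3, H2-Bl and H2-M2 were singled out after their values were seen.

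For time of day, which the choice of genes did not use as far as is known, a cosinor of a 24 h period was fitted to each gene in each group with limma, and p-values were adjusted by the Benjamini-Hochberg method over all genes. They weigh the fitted curve against what it leaves over, which holds the spread between mice and any departure from a 24 h shape. In control tumour mice 0 of the 8 genes had a time course at an adjusted p under 0.05, where 0.0251% of all genes did. The smallest adjusted p was 0.594, for H2-Q7, whose fitted peak-to-trough difference was 0.25 ± 0.10 (SE) on the log2 scale. In KO mice the count was 0 of 8, with 0.0% of all genes called and a smallest adjusted p of 0.513 for H2-Q4, and in sham mice 0 of 8, with 0.0% of all genes and 0.733 for H2-Q4. At an unadjusted p under 0.05 the cosinor picked 1101, 1258 and 883 of all genes in these 3 groups, but 0 of the 8 heavy chain genes in each. At these group sizes, a fitted peak-to-trough difference of H2-K1 in control tumour mice had an SE of 0.07, against a value of 0.03.

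The timepoint with the lowest mean was also compared. The 8 genes past the filter had their lowest control tumour mean at ZT15, as 6 of 8 did in KO mice and 2 of 8 in sham mice. Of all 11963 genes, 40.3% were lowest at ZT15 in control tumour mice, 18.0% in KO mice and 34.1% in sham mice. Under median-of-ratios scaling 5 of 8 were lowest at ZT15 in control tumour mice, against 29.3% of all genes, and H2-K1, H2-D1 and H2-T22 were lowest at ZT9 instead. With this scaling 7 of 8 were lowest at ZT15 in KO mice (24.1% of all genes) and 2 of 8 in sham mice (30.8%). The low at ZT15 was thus not particular to control tumour mice. The 8 genes share the same libraries, so this is no count of independent events. H2-M3 had the smallest p in the test among times given below. Its control tumour libraries had 175, 202, 172, 179 and 193 CPM at ZT15, against 232, 237, 238, 237 and 237 CPM at ZT21. No ZT15 library reached the lowest of ZT21. At ZT9 H2-M3 had 266, 209, 235, 250 and 231 CPM and at ZT3 224, 207, 174, 213 and 217 CPM. Means at ZT15 and ZT21 were 1587 ± 172 and 1995 ± 63.8 CPM (SD, n = 5) for H2-Q7 and 1547 ± 166 and 1870 ± 45.3 CPM (SD, n = 5) for H2-T23.

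H2-M3 was thus high at both ZT9 and ZT21, which lie 12 h apart, and a 24 h curve cannot describe such a shape. A test for any difference among the 4 timepoints, chosen after the data were seen, called H2-M3 in control tumour mice (limma adjusted p = 0.0354) and none of the other 7 genes, with adjusted p = 0.109 for H2-Q7 and 0.162 for H2-T23. In this test 5.28% of all genes were called. The call of H2-M3 rested on single libraries. With 1 of the 20 libraries dropped at a time, it passed in 9 fits and missed in 11, with a limma adjusted p between 0.0120 and 0.0903. It missed without replicates 3, 4 or 5 of ZT9, replicates 1, 3, 4 or 5 of ZT15 and replicates 2, 3, 4 or 5 of ZT21. Without replicate 2 of ZT15, H2-Q7 passed as well (limma adjusted p = 0.0374). In KO mice H2-M3 averaged 184 ± 18.7 CPM at ZT15 and 225 ± 11.1 CPM at ZT21 (SD, n = 3), and in sham mice 218 ± 19.2 and 205 ± 14.8 CPM (SD, n = 3). At ZT15 every control tumour library had less H2-M3 than every sham library, and at ZT21 every one had more.

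Whether the time course itself differed between groups was tested by the interaction of group and timepoint. By genotype 0 of 8 genes passed (0.0502% of all genes did). H2-Q4 came closest, with a limma adjusted p of 0.192. By treatment 0 of 8 passed (0.0% of all genes), and H2-M3 came closest, with a limma adjusted p of 0.338. At an unadjusted p under 0.05 the interaction picked 2184 of all genes by genotype and 1423 by treatment, and 1 of the 8 heavy chain genes in each. The difference between the group differences at ZT15 and ZT21 for H2-M3 is thus not established.

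**Figure D5:**
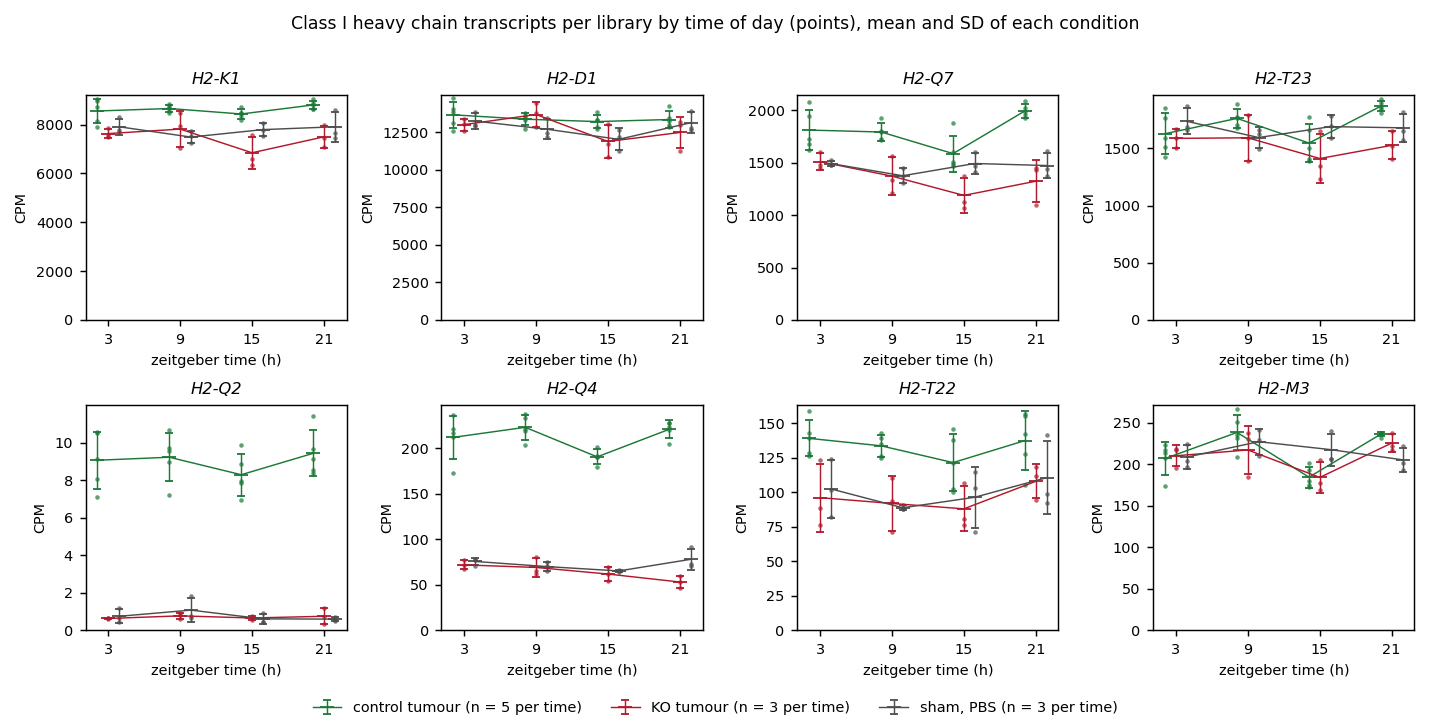
CPM of the 8 heavy chain genes past the filter by timepoint (x axis, ZT in hours) in control tumour, KO and sham mice, where points are mice, lines join group means and bars are the SD. In control tumour mice each of the 8 genes has its lowest mean at ZT15, and under median-of-ratios scaling, not plotted, 5 of 8 do.

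The machinery that supplies and loads class I was examined over a list of 14 genes, with an averaged group difference and limma adjusted p for each. In KO minus control tumour, 3 of 14 were higher (23.5% of all genes were) and 5 of 14 were lower (10.2% of all genes were), while 6 did not pass. The 5 lower genes encode subunits of the immunoproteasome and of its PA28 activator, which cut proteins into class I peptides: Psmb8 (-0.19 ± 0.06, limma adjusted p = 0.0131), Psmb9 (-0.31 ± 0.06, 0.000587), Psmb10 (-0.24 ± 0.05, 0.000706), Psme1 (-0.22 ± 0.06, 0.00376) and Psme2 (-0.23 ± 0.07, 0.0104). The 3 higher genes encode chaperones of the endoplasmic reticulum: Calr (0.28 ± 0.05, limma adjusted p = 3.50e-05), Canx (0.32 ± 0.07, 0.00124) and Pdia3 (0.33 ± 0.05, 7.04e-06). Tap1 (-0.02 ± 0.07), a subunit of the peptide transporter, and B2m (0.06 ± 0.06) did not pass.

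In control tumour minus sham, 1 of the 14 was higher (13.3% of all genes were), namely Psme2 (0.17 ± 0.06, limma adjusted p = 0.0218), and 2 were lower (24.6% of all genes were), namely B2m (-0.25 ± 0.06, 0.00166) and Pdia3 (-0.43 ± 0.05, 6.63e-08). The light chain gene was therefore lower in control tumour than in sham mice, where the heavy chains H2-K1 and H2-Q7 were higher. In KO minus sham, 1 of 14 was higher (5.43% of all genes were), Calr (0.29 ± 0.06, limma adjusted p = 0.00486), and 2 were lower (4.3% of all genes were), Psmb9 (-0.26 ± 0.07, 0.0306) and Psmb10 (-0.23 ± 0.06, 0.0364).

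Of 12 regulators of class I transcription, 2 were higher and 2 lower in KO than in control tumour mice, where 23.5% of all genes were higher and 10.2% lower. Higher were Rfxap (0.28 ± 0.09, limma adjusted p = 0.0164), a part of the RFX complex that binds class I and class II promoters, and Irf2 (0.26 ± 0.06, 0.00180), an interferon regulatory factor. Lower were Rfxank (-0.22 ± 0.07, limma adjusted p = 0.0219), also of the RFX complex, and Irf9 (-0.17 ± 0.06, 0.0253), a subunit of the interferon-activated factor ISGF3. In control tumour minus sham, 3 of 12 were higher and 3 lower, against 13.3% and 24.6% of all genes. Nlrc5, the class I transactivator, was higher (0.44 ± 0.14, limma adjusted p = 0.0114), as were Rela, a subunit of NF-kappa B (0.28 ± 0.06, 0.000870), and Irf9 (0.15 ± 0.06, 0.0367). Rfxap (-0.43 ± 0.09, limma adjusted p = 0.000339), Irf2 (-0.20 ± 0.06, 0.0140) and Irf7 (-0.66 ± 0.21, 0.0143), an interferon regulatory factor, were lower. Nlrc5 was -0.28 ± 0.15 for KO minus control tumour and did not pass (limma adjusted p = 0.146). KO minus sham gave 1 higher, Rela (0.42 ± 0.08, limma adjusted p = 0.00517), and 1 lower, Irf7 (-0.72 ± 0.21, 0.0421), where 5.43% and 4.3% of all genes passed. The shares of these small lists are given beside those of all genes and are not called particular to the lists. For time of day, 0 of 14 and 0 of 12 genes of these lists passed the cosinor in control tumour mice, with smallest unadjusted p of 0.0641 (B2m, limma adjusted p = 0.570) and 0.0888 (Rfxank, 0.594).

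The promoters of genes that differed and of genes that did not were set beside each other, since the clock, NF-kappa B and interferon factors act through known letters. RefSeq windows from 250 bases before to 50 bases after a listed start (GRCm38.p6) exist for 9 of the 10 genes, and H2-Q1 has none in the table used. A single start was taken per gene, and it need not be the outer end of the gene given above. The printed bases of H2-D1 lie within the gene bounds given above, and those of H2-T23 lie partly within them. Bases -200 to -81 are printed 5′ to 3′ on the strand of the gene for H2-K1 at chr17:34000428-34000547 on the minus strand, H2-D1 at chr17:35262894-35263013 on the plus strand, H2-Q2 at chr17:35342107-35342226 on the plus strand, H2-Q4 at chr17:35379417-35379536 on the plus strand, H2-Q7 at chr17:35438955-35439074 on the plus strand and H2-T23 at chr17:36032782-36032901 on the minus strand. Capitals mark matches, on either strand, to a kappa B form (GGG, 5 bases of any kind, CC) or to the core of an interferon-stimulated response element (GAAA, 2 bases of any kind, GAAA).
H2-K1: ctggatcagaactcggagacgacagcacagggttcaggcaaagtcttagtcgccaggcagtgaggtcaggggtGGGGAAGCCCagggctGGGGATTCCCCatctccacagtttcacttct
H2-D1: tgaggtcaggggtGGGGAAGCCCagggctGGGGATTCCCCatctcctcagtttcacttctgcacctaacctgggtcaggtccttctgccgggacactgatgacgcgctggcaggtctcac
H2-Q2: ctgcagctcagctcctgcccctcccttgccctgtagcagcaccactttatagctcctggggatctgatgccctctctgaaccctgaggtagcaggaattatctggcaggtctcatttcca
H2-Q4: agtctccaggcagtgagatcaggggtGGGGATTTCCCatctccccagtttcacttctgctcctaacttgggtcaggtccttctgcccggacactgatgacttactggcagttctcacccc
H2-Q7: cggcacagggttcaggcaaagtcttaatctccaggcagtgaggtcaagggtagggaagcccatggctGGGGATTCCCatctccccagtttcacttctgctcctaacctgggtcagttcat
H2-T23: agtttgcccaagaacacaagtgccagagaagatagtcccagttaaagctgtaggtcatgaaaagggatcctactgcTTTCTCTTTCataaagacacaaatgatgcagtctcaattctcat

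The kappa B form occurred in the windows of 7 of 9 genes (H2-K1, H2-D1, H2-Q4, H2-Q6, H2-Q7, H2-T22 and H2-M3), as it did in 50.8% of all 32851 windows, so it is common at this looseness, and matches may overlap each other. The interferon core was found in H2-T22 and H2-T23, and in 3.44% of all windows. Only these letters were searched for, so other forms of the element would be neither counted nor printed in capitals. A window without a match is thus not shown to lack such an element. The E-box CACGTG, to which BMAL1 and CLOCK bind, was in none of the 9 windows, and in 7.15% of all windows. H2-Q2, with the widest group difference, held none of these letters, and H2-Q4, which differed nearly as clearly, held a kappa B form as H2-K1 and H2-D1 did. These matches are a description of the letters in these windows.

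Libraries within a group and timepoint varied together across the heavy chain genes. After the mean of each group and timepoint was removed, the 28 pairs among the 8 genes correlated over the 44 libraries with Pearson's r from 0.06 to 0.81 (median 0.45), all above 0. The points share library, depth and the total to which CPM are scaled, and pairs with shared windows may share reads. Of all genes tested, those most like H2-K1 in this measure were Sdf4 (r = 0.82), Scpep1 (r = 0.78) and H2-D1 (r = 0.76), and those most like H2-D1 were H2-K1 (r = 0.76), Tuba1a (r = 0.74) and Ube2l6 (r = 0.74). For H2-Q7 they were H2-T23 (r = 0.81), Il15 (r = 0.73) and Surf2 (r = 0.71), and for H2-T23 they were Zmynd15 (r = 0.87), H2-Q7 (r = 0.81) and Spint2 (r = 0.81).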

How the data were processed

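The authors aligned single 50-base reads to mm10 with STAR 2.7.0, counted them on genes with HTSeq 0.9.1, scaled by library size with edgeR and deposited CPM for 14699 genes, per the methods and the submitters' processing notes. Each library sums to 1000000. Whole multiples of 1 read (within 0.01) made up 87.4% to 89.3% of a library's values, which gave the depth. Because the heavy chain genes are not among them, no count test was run.

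The 11963 genes that reached 1 CPM in 5 or more libraries were tested as log2(CPM + 0.5) with limma 3.58.1 (R 4.3.3): a 24 h cosinor per group, and group by timepoint interactions and averaged differences over the libraries of the groups compared. The models were tested on simulated data. The genes and lists were chosen with earlier results of these data known. Genes named are the listed genes, those of the pathway lists that passed the test or had the smallest p, and the 3 genes with the highest correlation with each of 4 heavy chains. The averaged test of the pathway lists was added later. Shared 50-base windows came from GENCODE transcripts of GRCm38, promoters from RefSeq. Alternatives were pseudocounts of 1 and 0.1, median-of-ratios scaling, other filters, array weights, the replicate block and leaving out each library. No library pairs were identical. Tables and figures used Python 3.11.15.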

Additional observations from a re-analysis of the deposited data

Results flagged for a closer look

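In the 48 groups of 5 control tumour libraries tested (heavy chain genes and sums by timepoint), 3 held a library far from the others by Dixon's criterion, where chance gives about 1 in 20. H2-M3 at ZT21 was 232.078 CPM in replicate 1, below the other libraries at 237 to 238 CPM. The gap is small. At ZT15 replicate 2 stood above the others for H2-Q5, with 156.862 CPM against 98.5 to 108 CPM, and for the sum of all 6 H2-Q rows, with 2225.93 CPM against 1781 to 1907 CPM. The same library had the most H2-Q7 (1881 CPM) and H2-M3 (202 CPM) and the least H2-Q2 (6.92 CPM) and H2-Q4 (179 CPM) of its timepoint.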

How the results depend on the processing

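With 1 library left out at a time, 0 heavy chain genes passed any of the 3 cosinor or 2 interaction tests, KO minus control tumour stayed between -3.06 and -2.94 (H2-Q2), -1.76 and -1.71 (H2-Q4) and -0.55 and -0.49 (H2-Q sum), and control tumour minus sham between 2.92 and 3.05, 1.53 and 1.58, and 0.38 and 0.41. Only H2-M3, control tumour minus sham, changed sign (-0.01 to 0.02, within its SE). With the replicate block the count of genes was 0 in all 5 tests. Over all genes, replicate numbers showed no clear pairing of the mice, as same-numbered libraries correlated with r from -0.24 to 0.16 within a group and from -0.16 to 0.19 between groups. A shared experiment or sorting day that moves only some genes could be missed in this way. The test among the 4 times called 1 gene in place of 0 in control tumour mice (H2-M3, adjusted p = 0.0354), and with 1 control tumour library left out 0 to 2 genes (0.0120 to 0.0903 for H2-M3). Under median-of-ratios scaling, which moved the median of all genes from 0.10 to 0.01, KO minus control tumour was -0.31 for H2-K1 and -0.17 for H2-D1. For H2-Q2, a pseudocount of 1 gave -2.56 and 2.53, and 0.1 gave -3.55 and 3.52, as follows from its low level. Sham in place of control tumour left KO differences of -0.0650 (H2-K1), -0.0304 (H2-Q2), -0.18 (H2-Q4), -0.12 (H2-Q7) and -0.0521 (H2-T22). Leaving H2-Q7 out of the H2-Q sum gave -1.78 and 1.60. The other 86 values under these settings were counted as unchanged. For log2 differences this means a move smaller than the spread between mice, and for tests an unchanged count of heavy chain genes passing. The cause of the shifts was not tested beyond this. The test among times, the sham baseline and the sum without H2-Q7 were chosen after seeing the data. Low levels limit H2-Q1, with few reads in every group (a median of 7.93 in control tumour libraries), and H2-Q2, which rests on few reads in the deeper KO and sham libraries.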
